A study of Mus musculus with 8 samples.

Results

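The genes examined are 40 mitotic genes: the mitotic kinases and cyclins, the spindle checkpoint, the kinetochore, the mitotic kinesins and the proteins of the spindle midzone and of cytokinesis. They were chosen by symbol, with earlier results of these data known, and all 40 were found among the 53090 gene rows of each deposited table. *Kif11* has 2 rows of the same length that hold equal values, and the one that GENCODE lists was used. Expected counts such as 283.5 in L3 point to reads shared evenly between the 2 rows. The level of the gene is then their sum, given with the kinesins. All 40 genes passed the filter on low counts, which left 17090 genes for testing.

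The samples are 8 sciatic nerve libraries of mice at postnatal day 7 (P7), 4 labelled WT and 4 labelled Nae1 cKO. In *Nae1* cKO mice, Cre expressed in Schwann cells removes exon 4 of a floxed *Nae1*. The controls, per the study's methods, are littermates with no Cre that carry 1 or 2 floxed alleles of *Nae1*. The other cells of the nerve keep *Nae1* in both groups. Libraries were stranded and made of total RNA depleted of ribosomal RNA. Nerves carry the names of the labels, control K1, L3, L4 and L9 and *Nae1* cKO K2, L1, L5 and L8, and values in 4 nerves are given in this order. The labels do not say what the letters stand for. Libraries held 12962798 to 14766770 expected counts. Levels are CPM, counts per 1000000 counts of the library after TMM scaling. *Nae1*, which encodes a subunit of the enzyme that activates the ubiquitin-like protein NEDD8, was at 89.8, 81.3, 77.7 and 82.7 CPM in control and 57.1, 57.2, 48.9 and 43.8 CPM in *Nae1* cKO nerves. The groups did not overlap, and the mutants were the lower (log2 fold change −0.68, SE 0.097, adjusted p = 0.000277; by an exact two-sided permutation test of the means p = 0.0286, which is the least that 4 nerves against 4 can give).

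A cell enters mitosis when the kinase CDK1, bound to A- and B-type cyclins, is switched on. Aurora and Polo-like kinases then build the spindle, kinetochores couple chromosomes to its microtubules, and the spindle checkpoint holds back the anaphase-promoting complex until each chromosome is attached. In anaphase, midzone proteins bundle the overlapping microtubules and place the contractile ring that divides the cell. Most of these genes are transcribed late in the cell cycle, so that their RNA in a tissue comes largely from cycling cells. Schwann cells divide in the nerve before and around birth and leave the cycle as they sort axons and begin to myelinate.

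Mitotic genes were higher in *Nae1* cKO nerves almost throughout. At an adjusted p under 0.05, 39 of the 40 rose, none fell, and *Plk1* did not pass. Where a value and an adjusted p alone stand in brackets, the value is the log2 fold change. Of all genes tested, 14.1% rose and 12.3% fell. The median log2 fold change of the 40 was 1.03, against 0.0066 over all genes, and single genes ran from 0.66 (*Plk1*) to 1.24 (*Ndc80*). In 24 of the 40 the rise was over 2-fold, against 4.25% of all genes. In CPM, the levels of the 4 *Nae1* cKO nerves lay above all 4 control nerves in 32 of the 40, against 14.9% of all genes. In the other 8 (*Aurka*, *Plk1*, *Cenpa*, *Nuf2*, *Ska1*, *Kif15*, *Kif23* and *Ect2*) nerve K2 did not lie above every control, and in *Aurka* it lay below them all. The 3 *Nae1* cKO nerves with the letter L lay above all 4 control nerves in all 40 genes, against 20.3% of all genes. In RNA of a whole nerve, more dividing cells and more of these RNAs per cell cannot be told apart.

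**Figure D1:**
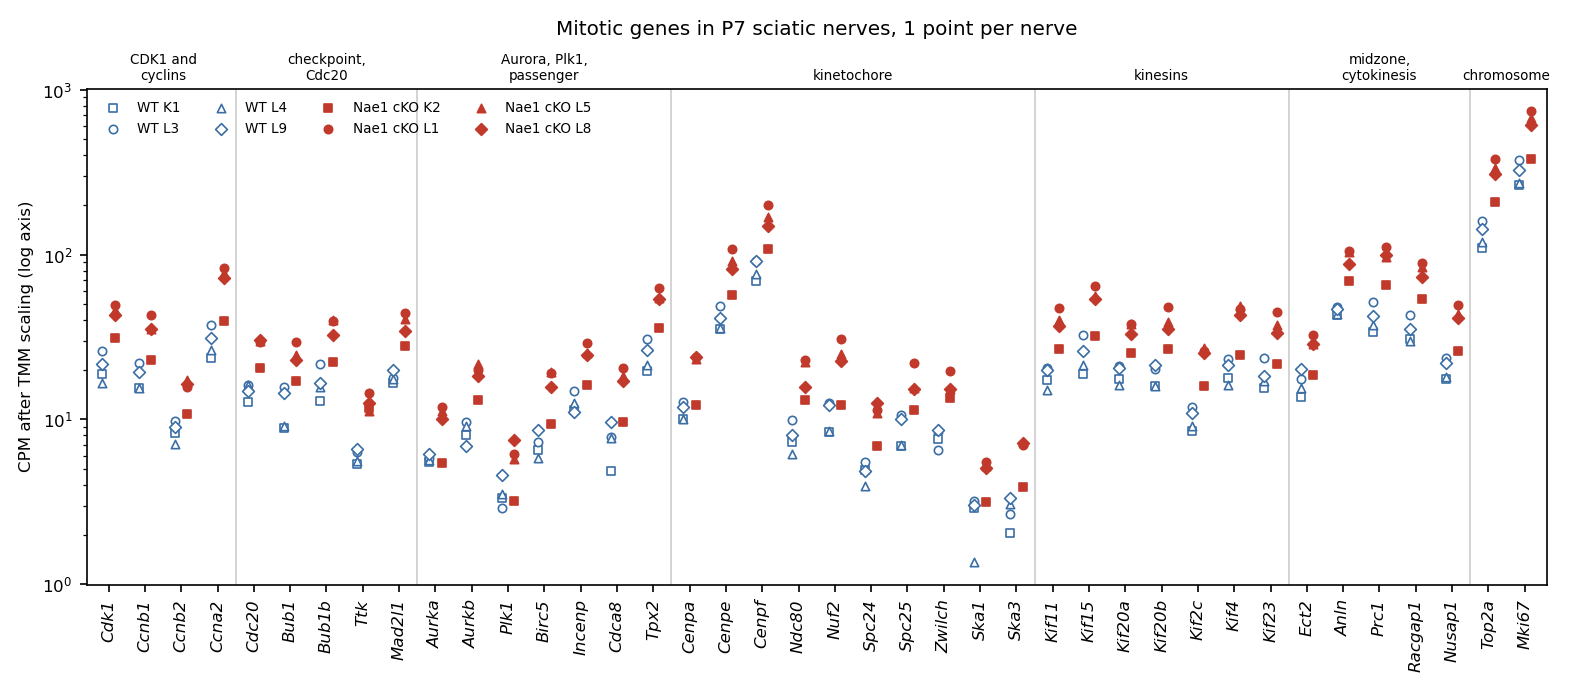
Level of each of the 40 mitotic genes in each nerve (CPM after TMM scaling, log axis), grouped by role, with open blue symbols for 4 control nerves and filled red symbols for 4 *Nae1* cKO nerves. The 3 *Nae1* cKO nerves with the letter L sit above all control nerves in every gene, while K2 (red squares) sits lowest of its group in 39 of the 40.

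The promoters of the 40 genes were searched for 2 sequence elements that late cell cycle genes are known for. The genes were chosen as mitotic genes and the search used no expression value. The shares below therefore describe this class of genes and do not bear on its change in *Nae1* cKO nerves. The cell cycle homology region, TTTGAA or TTCGAA, is bound by MuvB complexes, and CCAAT by the factor NF-Y. RefSeq promoters (GRCm38.p6; 250 bases before each start, both strands searched; TTCGAA reads the same on both, and matches of the different elements can share at most 1 base) were found for 32 of the 40 genes, 34 promoters in all. The cell cycle homology region was in 13 of these 34 (38.2%), against 17.1% of all 32851 promoters, and within 100 bases of the start in 8 (23.5%), against 6.13%. CCAAT was in 24 (70.6%), against 33.8%, and 2 or more copies were in 16 (47.1%), against 10.1%. Both elements were in 10 promoters (29.4%), against 6.02%. These matches describe letters, not binding. The 5 genes with a cell cycle homology region and the smallest adjusted p are shown by the 150 bases before the RefSeq start, 5′ to 3′ on the strand of the gene. Capitals mark both elements, written as TTCAAA or ATTGG where the match is on the other strand.

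*Kif2c* (chr4:117178773-117178922, minus strand; 1 cell cycle homology region 103 bases before the start): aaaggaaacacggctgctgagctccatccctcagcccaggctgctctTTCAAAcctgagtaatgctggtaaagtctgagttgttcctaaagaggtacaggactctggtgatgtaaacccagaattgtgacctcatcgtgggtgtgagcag

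*Prc1* (chr7:80294326-80294475, plus strand; cell cycle homology region at 30 bases, CCAAT at 62): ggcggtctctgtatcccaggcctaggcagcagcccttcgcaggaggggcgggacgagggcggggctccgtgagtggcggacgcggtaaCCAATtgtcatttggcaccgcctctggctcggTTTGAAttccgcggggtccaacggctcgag

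*Kif11* (chr19:37376232-37376381, plus strand; cell cycle homology region at 19 bases, CCAAT at 45): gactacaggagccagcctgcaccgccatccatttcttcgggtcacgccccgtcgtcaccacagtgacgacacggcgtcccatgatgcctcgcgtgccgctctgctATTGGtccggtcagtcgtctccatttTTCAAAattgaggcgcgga

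*Cdc20* (chr4:118437344-118437493, minus strand; a cell cycle homology region between CCAAT copies at 53 and 8 bases): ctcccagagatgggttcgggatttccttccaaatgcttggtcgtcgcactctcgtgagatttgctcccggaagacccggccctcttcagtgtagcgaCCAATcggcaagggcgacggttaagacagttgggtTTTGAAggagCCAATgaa

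*Cdk1* (chr10:69352913-69353062, minus strand; cell cycle homology regions at 71 and 15 bases, CCAAT at 80 and 48): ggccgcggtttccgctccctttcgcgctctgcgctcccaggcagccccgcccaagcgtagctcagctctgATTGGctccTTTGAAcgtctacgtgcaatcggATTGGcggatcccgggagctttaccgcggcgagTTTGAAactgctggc

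In *Prc1*, *Kif11*, *Cdc20* and *Cdk1* a CCAAT lay upstream of a cell cycle homology region in the printed bases. The *Kif2c* promoter held no CCAAT, and the RefSeq start used there lies downstream of the outer gene boundary in GENCODE, at 117182639.

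The kinase of mitotic entry and its cyclins all rose, with a median log2 fold change of 0.97 over 4 genes. *Cdk1* (ENSMUSG00000019942.13; GRCm38 chromosome 10, 69335146 to 69352938, minus strand) was at 19, 26.1, 16.6 and 21.6 CPM in control nerves and at 31, 49.5, 46.4 and 43.1 CPM in *Nae1* cKO nerves. The groups did not overlap, and K2 was the closest to the controls (log2 fold change 1.03, SE 0.16, adjusted p = 0.000741). *Ccna2*, cyclin A of S phase and mitotic entry, was at 23.4, 37.5, 26.5 and 31.1 CPM in control and 39.4, 83.4, 77.4 and 72.3 CPM in *Nae1* cKO nerves. Nerves L1, L5 and L8 stood at about the same level and K2 just above the highest control (log2 fold change 1.20, SE 0.24, adjusted p = 0.00505). Of the B-type cyclins, which form the mitotic CDK1 complex, *Ccnb1* was at 15.5, 22.1, 15.5 and 19.4 CPM in control and 23.1, 43.1, 35.1 and 35.5 CPM in *Nae1* cKO nerves. K2 exceeded the highest control, L3, by little (log2 fold change 0.92, SE 0.18, adjusted p = 0.00334). *Ccnb2* was at 8.33, 9.85, 7.10 and 8.98 and 10.8, 15.7, 17.3 and 16.3 CPM, again without overlap (log2 fold change 0.81, SE 0.16, adjusted p = 0.00282).

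The 4 spindle checkpoint genes among the 40 and the gene of their target, CDC20, rose, with a median of 1.01 over 5 genes. *Bub3* (0.03, adjusted p = 0.851) and *Mad1l1* (0.03, adjusted p = 0.894), checkpoint genes outside the 40, did not pass. *Ttk* encodes MPS1, the kinase that starts checkpoint signalling. It was at 5.33, 6.37, 5.60 and 6.59 CPM in control nerves and at 11.8, 14.5, 11.2 and 12.5 CPM in *Nae1* cKO nerves, and K2 did not stand apart here (log2 fold change 1.07, SE 0.14, adjusted p = 0.000122). It is the 1 gene of the 40 in which K2 was not the lowest *Nae1* cKO nerve. *Mad2l1* encodes MAD2, which binds and holds CDC20. It was at 16.7, 18, 17.5 and 20.02 CPM in control and 27.9, 44.2, 40.7 and 34.5 CPM in *Nae1* cKO nerves, a narrow control range well below all 4 mutants (log2 fold change 1.03, SE 0.14, adjusted p = 0.000163). The kinase gene *Bub1* (0.97, adjusted p = 0.00634) and *Bub1b*, which encodes BUBR1 of the mitotic checkpoint complex (1.01, adjusted p = 0.00339), rose by similar amounts on the log2 scale. *Cdc20*, the activator of the anaphase-promoting complex, was at 12.7, 16.1, 16.3 and 14.8 CPM in control and 20.4, 29.3, 29.98 and 30.4 CPM in *Nae1* cKO nerves (log2 fold change 0.88, SE 0.14, adjusted p = 0.000603). Its levels in L1, L5 and L8 were nearly equal, and K2 lay between them and the controls.

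Among the Aurora and Polo-like kinases and their partners, 6 of 7 rose, and this group holds the gene that did not pass. The chromosomal passenger complex corrects faulty attachments and later sits at the midzone. Its 4 genes rose without overlap of the groups: the kinase *Aurkb* (1.11, adjusted p = 0.000387), the scaffold *Incenp* (0.92, adjusted p = 0.00168), survivin, *Birc5* (1.17, adjusted p = 0.00193), and borealin, *Cdca8* (1.12, adjusted p = 0.00578). In *Cdca8*, however, K2 at 9.702 CPM was almost level with control L9 at 9.693 CPM. *Aurkb* was at 8.04, 9.70, 9.18 and 6.91 CPM in control nerves and at 13.1, 19.9, 21.8 and 18.5 CPM in *Nae1* cKO nerves. *Tpx2*, which activates Aurora A on spindle microtubules, rose as well (1.08, adjusted p = 0.00124). *Aurka*, the kinase of the spindle poles, was at 5.55, 5.86, 5.67 and 6.20 CPM in control and 5.45, 11.9, 11.3 and 10.1 CPM in *Nae1* cKO nerves. Its controls were tight, 3 mutants lay far above them and K2 lay below them all (log2 fold change 0.74, SE 0.21, adjusted p = 0.0229). *Plk1* (ENSMUSG00000030867.7; chromosome 7, 122159439 to 122169873, plus strand), a kinase that acts from mitotic entry to cytokinesis, was at 3.36, 2.90, 3.51 and 4.61 CPM in control and 3.21, 6.13, 5.78 and 7.53 CPM in *Nae1* cKO nerves. K2 lay within the control range and control L9 above the other controls (log2 fold change 0.66, SE 0.25, adjusted p = 0.0699). Both calls depended on the analysis. *Aurka* did not pass in 9 of 21 alternative analyses (adjusted p 0.0514 to 0.175), and *Plk1* passed in 5, among them the one without K2.

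All 10 kinetochore and centromere genes rose, with a median of 1.04. *Cenpa*, the histone H3 variant that marks the centromere, was at 10.1, 12.7, 10.04 and 11.8 CPM in control and 12.2, 24, 23.1 and 23.9 CPM in *Nae1* cKO nerves, where K2 lay within the control range (log2 fold change 0.90, SE 0.20, adjusted p = 0.00565). The NDC80 complex is the rod that grips the microtubule end. *Ndc80* (ENSMUSG00000024056.9; chromosome 17, 71496100 to 71526857, minus strand) had the highest log2 fold change of the 40, at 7.30, 9.92, 6.17 and 8.02 CPM in control and 13.1, 23.1, 22.3 and 15.8 CPM in *Nae1* cKO nerves (log2 fold change 1.24, SE 0.20, adjusted p = 0.000778). Its partners *Nuf2* (1.12, adjusted p = 0.00999), *Spc24* (1.11, adjusted p = 0.0011) and *Spc25* (0.89, adjusted p = 0.00807) rose too, and K2 reached the control range in *Nuf2* alone. *Cenpf*, a large protein of the outer kinetochore, was the most abundant of the group by CPM, at 69.5, 92, 75.7 and 91.1 in control and 108, 201, 169.8 and 149 in *Nae1* cKO nerves (log2 fold change 0.93, SE 0.17, adjusted p = 0.00277). *Cenpe*, the kinesin that brings chromosomes to the spindle equator (1.07, adjusted p = 0.00151), and *Zwilch*, of the complex that recruits dynein (1.02, adjusted p = 0.000315), rose by close to 2-fold. The SKA complex holds on to shortening microtubules. Its gene *Ska3* rose (1.19, adjusted p = 0.00249), and *Ska1*, the lowest of the 40, was at 2.92, 3.19, 1.36 and 3.02 CPM in control and 3.13, 5.50, 5.23 and 5.09 CPM in *Nae1* cKO nerves. Control L4 held 19 counts of *Ska1* and lay far below the other controls, and K2 lay within the control range (log2 fold change 0.86, SE 0.27, adjusted p = 0.0331). The third subunit gene, *Ska2*, which is outside the 40, did not pass, with an estimate in the other direction (−0.26, adjusted p = 0.196). *Ska1* did not pass in 8 of the 21 alternative analyses (adjusted p 0.0519 to 0.183).

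All 7 mitotic kinesins rose, with a median of 1.05. *Kif2c*, the microtubule depolymerase MCAK, changed the most, from 8.47, 11.9, 9.18 and 11 CPM in control to 16, 26.1, 27.2 and 25.2 CPM in *Nae1* cKO nerves (log2 fold change 1.22, SE 0.17, adjusted p = 0.000273). *Kif11*, the Eg5 motor that pushes spindle poles apart (ENSMUSG00000012443.3; chromosome 19, 37376403 to 37421859, plus strand), was at 17.4, 20.6, 15.1 and 20.02 CPM in control and 26.6, 47.2, 40.3 and 37.1 CPM in *Nae1* cKO nerves (log2 fold change 1.05, SE 0.16, adjusted p = 0.000595). With its 2 rows summed, *Kif11* was at 36.5 ± 5 CPM (SD, n = 4) and 75.7 ± 17.1 CPM (SD, n = 4), at the same log2 fold change of 1.05. *Kif15*, which shares the work of Eg5 (1.06, adjusted p = 0.00704), and *Kif4*, a chromokinesin (1.05, adjusted p = 0.00345), rose by about as much. *Kif20b* (1.02, adjusted p = 0.000987), *Kif20a*, which carries the passenger complex to the midzone (0.83, adjusted p = 0.000837), and *Kif23*, the motor of centralspindlin (0.89, adjusted p = 0.00975), rose too.

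The genes of the midzone and of cytokinesis rose in all 5 cases, with a median of 1.01. *Anln*, anillin of the contractile ring (ENSMUSG00000036777.8; chromosome 9, 22332012 to 22389188, minus strand), had the smallest adjusted p of the 40. It was at 42.8, 48.3, 43.9 and 47 CPM in control and 69.5, 106, 103 and 88.1 CPM in *Nae1* cKO nerves, with close controls and a wide gap to the mutants (log2 fold change 1.01, SE 0.12, adjusted p = 7.61e-05). *Prc1*, which bundles midzone microtubules, was at 34.1, 51.4, 37.5 and 42.2 CPM in control and 65, 112, 96.3 and 99.3 CPM in *Nae1* cKO nerves (log2 fold change 1.17, SE 0.17, adjusted p = 0.000552). *Racgap1*, the partner of *Kif23* in centralspindlin, rose more than it in the estimate, with no test of that difference (1.11, adjusted p = 0.000409). *Nusap1*, a microtubule bundler (0.97, adjusted p = 0.00206), and *Ect2*, the RhoA activator of the cleavage furrow, also rose, the latter by the least of the genes that passed (0.70, adjusted p = 0.00982).

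*Top2a* and *Mki67*, both widely used as proliferation markers, were the most abundant of the 40. *Top2a*, topoisomerase IIα, was at 109.9, 160.4, 119 and 143 CPM in control nerves and at 209, 380.3, 337 and 310.2 CPM in *Nae1* cKO nerves (log2 fold change 1.22, SE 0.18, adjusted p = 0.000806). *Mki67*, Ki-67 of the chromosome surface, was at 265, 373, 273 and 328 CPM in control and 379, 741, 671 and 610.5 CPM in *Nae1* cKO nerves (log2 fold change 0.95, SE 0.20, adjusted p = 0.00567). In both genes L3 was the highest control, L1 the highest *Nae1* cKO nerve and K2 the lowest one.

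**Figure D2:**
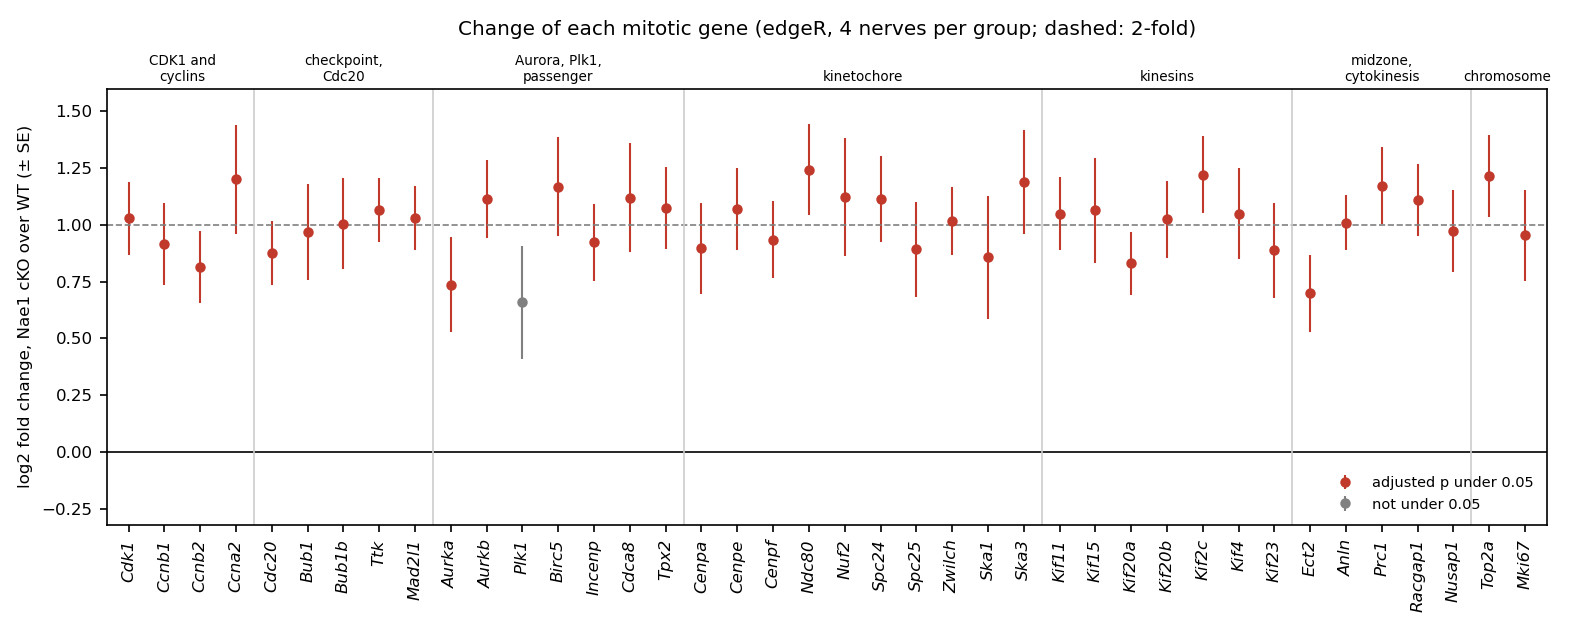
Log2 fold change of each mitotic gene, *Nae1* cKO over control, with bars of 1 SE from edgeR's fit over 4 nerves per group, in the order of the plot of levels. Red points passed at an adjusted p under 0.05, the grey point is *Plk1* (0.66), and the dashed line is a 2-fold rise, which 24 genes exceeded.

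Compared per length of transcript, the 40 genes covered a wide range of levels. In deposited TPM, *Top2a* stood at 25.9 ± 5.24 (SD, n = 4) in control and 67.5 ± 29.4 (SD, n = 4) in *Nae1* cKO nerves. *Mki67* followed at 21.2 ± 4.08 and 47.2 ± 21.5 TPM, neighbours in the order whose spreads overlap. *Prc1* was at 12.8 and *Cdk1* at 12.7 TPM in control nerves. At the low end in control nerves were *Ttk* at 1.70, *Plk1* at 1.67, *Ska3* at 0.96 and *Ska1* at 0.70 TPM. Subunits of the NDC80 complex, a heterotetramer, were listed at 2.53 (*Ndc80*), 3.44 (*Nuf2*), 2.86 (*Spc24*) and 5.04 TPM (*Spc25*) in control nerves. TPM values here also move with the share of each library in mitochondrial and small noncoding RNA, 71.7% to 78.0% of TPM in control and 67.0% to 81.2% in *Nae1* cKO nerves, K2 the highest. The TPM of the 40 genes summed to 171, 262, 226 and 253 in control nerves. In *Nae1* cKO nerves the sums were 233, 777, 583 and 543, so that K2 lay within the control range on this scale. On log2(TPM + 1) with limma, 33 of the 40 rose, against 7.59% of all genes.

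The annotation places 10 of the 40 genes over exons of a gene on the opposite strand, by 53 to 1271 bases. They are *Ccna2* (*Exosc9*), *Cdc20* (*Elovl1*), *Cdca8* (9930104L06Rik), *Kif20a* (*Cdc23*), *Kif4* (*Pdzd11*), *Nusap1* (*Oip5*), *Plk1* (Gm44985), *Prc1* (*Rccd1*), *Ska3* (*Sap18*) and *Zwilch* (*Lctl*). The libraries were stranded, but the strand setting of the counting is not given in the sources used here, so reads of such a pair may not be fully told apart. Of these 10, all but *Plk1* rose, and their log2 fold changes lay between 0.66 (*Plk1*) and 1.20 (*Ccna2*). Apart from these, exons of *Top2a* overlap the small nucleolar RNA gene Gm23451 on the same strand by 122 bases, where strand cannot separate the reads.

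The 40 genes also varied together across the nerves of each genotype. Summed over the 40, they came to 963, 1330, 1000 and 1200 CPM in control nerves and 1530, 2790, 2520 and 2310 CPM in *Nae1* cKO nerves. K2 was the lowest *Nae1* cKO nerve in 39 of the 40 genes, against 35.5% of all genes, and L1 was the highest in 30. L3 was the highest control in 29 genes, against 22% of all genes. The lowest control was K1 in 24 genes and L4 in 12, against 23.5% and 24.8% of all genes, and L3 or L9 in 2 genes each. Relative to the control mean, the median log2 level of the 40 was −0.19, 0.23, −0.17 and 0.10 in the controls and 0.42, 1.29, 1.15 and 1.02 in the mutants, while that of all genes stayed between −0.0119 and 0.005. K2 also differed from the other *Nae1* cKO nerves in other RNAs: the noncoding RNA 7SK took 4.70% of its counts (95% Wilson interval 4.685% to 4.707%), against 1.94% to 2.43%, and mitochondrial genes took 1.54% (1.535% to 1.548%), against 3.08% to 3.13%. The intervals cover counting error only. In control nerves 7SK took 1.97% to 2.66% and mitochondrial genes 2.19% to 4.23%. Control K1 was the highest of these for 7SK and, close to L3 at 2.24%, the lowest for mitochondrial genes. The part of these differences in the lower mitotic levels of K2 was not tested. The median coefficient of variation of the 40 genes was 16.6% in control nerves, 23.7% in *Nae1* cKO nerves and 9.59% in the latter without K2.

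**Figure D3:**
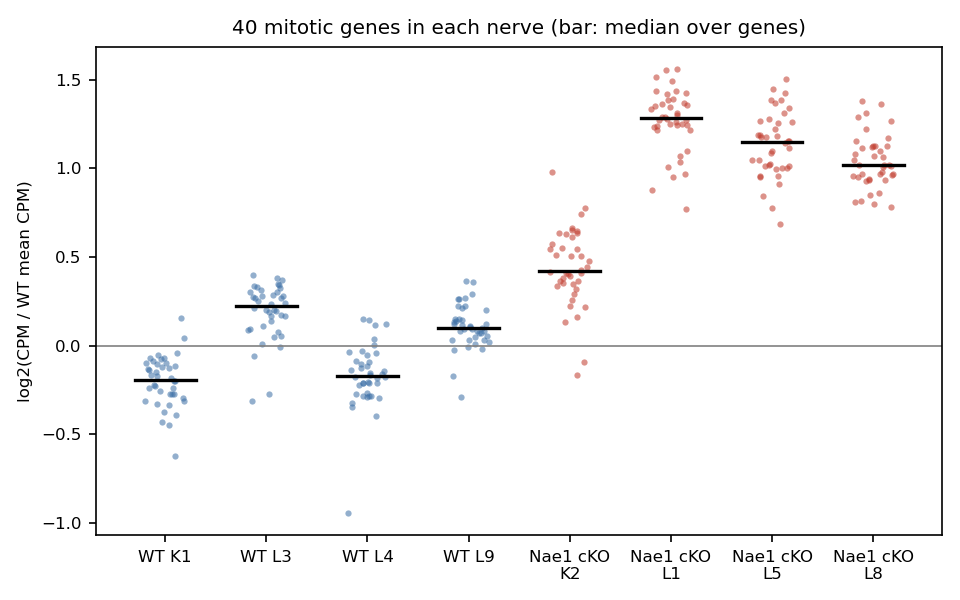
Level of each of the 40 mitotic genes in each nerve relative to the mean of the 4 control nerves (log2 of the CPM ratio), 1 point per gene, with bars at the median over genes. The medians of L1, L5 and L8 lie above 1, that of K2 at 0.42, and those of control K1 and L4 below 0.

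With only 1 nerve of each genotype under the letter K, the letters allow no test within K. K2 lay above K1 in 38 of the 40 genes, with a median log2 difference of 0.69 (−0.07 to 1.14). Among the 6 nerves with the letter L the median log2 difference was 1.10 (0.76 to 1.35), and it was the larger in 39 genes. With the letter as a term of the model, all 40 genes rose, against 16.4% of all genes. With the 6 nerves of the letter L alone, all 40 rose, against 14% of all genes. In 29 the rise was over 2-fold, a share not counted over all genes in this fit.

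The count over 2-fold moved with single nerves. It was 10 without L1, 15 without control K1 and 34 without K2, while 37 to 40 genes passed whichever nerve was left out. Of all genes, 11.2% (without L5) to 15.7% (without K2) were higher in these fits. The share of all genes over 2-fold was counted in the main fit only (4.25%). Control K1 and L4, the lowest controls for most mitotic genes, also held the most skeletal muscle RNA. The 13 muscle markers summed to 1350 CPM in K1 and 2180 in L4, against 377 in L3 and 134 in L9, and to 65.5 to 202 CPM in *Nae1* cKO nerves. Without both (2 controls against 4 mutants) 20 mitotic genes passed, 7 of them over 2-fold, against 7.17% of all genes higher in that comparison. The median log2 fold change of the 40 was then 0.86, with a range of 0.52 to 1.13. The part of muscle RNA in the lower mitotic levels of K1 and L4 was not tested.

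Genes with related roles were taken from lists drawn up by function, also with earlier results of these data known. Their counts stand against 14.1% higher and 12.3% lower over all genes tested. Over 4 lists of other mitotic genes, 49 of the 82 tested rose and 1 fell, with a median log2 fold change of 0.77. Of 31 other kinetochore and centromere genes, none fell and 20 rose (median 0.60), among them *Cenpi* of the inner kinetochore (1.15, adjusted p = 3.89e-05), shugoshin 2, *Sgo2a* (1.36, adjusted p = 6.62e-05), and *Nsl1* of the MIS12 complex (1.25, adjusted p = 0.000208). Of 18 other spindle genes and mitotic kinesins, 15 rose (median 0.87), led by *Ckap2* (1.26, adjusted p = 0.000106), the histone kinase gene *Haspin* (1.09, adjusted p = 0.000224), *Dlgap5* (1.18, adjusted p = 0.000313) and *Plk4*, the kinase of centriole duplication (0.85, adjusted p = 0.000916). *Aurkc* was too low to test.

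Condensins, cohesin and separase gave 8 rises among 19 genes and no fall (median 0.23), led by the condensin subunits *Ncaph* (1.15, adjusted p = 9.58e-05), *Ncapg* (1.09, adjusted p = 0.000356), *Ncapd2* (0.90, adjusted p = 0.000428) and *Ncapg2* (0.87, adjusted p = 0.000773). Set apart after their values were seen, 7 of 8 condensin subunits, which compact chromosomes in mitosis, rose (median 0.80). Of 8 genes of cohesin and its regulators, which hold sister chromatids together and organise chromatin in interphase as well, none passed (median 0.13, 0.02 to 0.23), but this set leaves out *Cdca5*, sororin, which stabilises cohesin on chromatin and rose (1.14, adjusted p = 0.0057). Regulators of CDK1 gave 6 rises and 1 fall among 14 (median 0.64). *Mastl*, the Greatwall kinase that restrains the phosphatase opposing CDK1, rose (1.16, adjusted p = 4.23e-05), as did the CDK subunit *Cks1b* (1.19, adjusted p = 0.0003) and the inhibitory kinase *Wee1* (0.86, adjusted p = 0.00149). *Arpp19*, a substrate of Greatwall, fell (−0.43, adjusted p = 0.000635), but not on TPM, where its log2 fold change was 0.035.

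The anaphase-promoting complex is the ubiquitin ligase that CDC20 activates. Of 18 genes of the complex, its ubiquitin-conjugating enzymes, *Fzr1* and its inhibitor, 2 rose and none fell (median 0.03). Of all genes, 14.1% were higher and 12.3% lower. The 2 that rose were *Fbxo5*, the inhibitor EMI1 (1.20, adjusted p = 0.000182), and *Ube2c*, a ubiquitin-conjugating enzyme of the complex (0.85, adjusted p = 0.0125). None of the 14 subunits passed in either direction, and their log2 fold changes lay between −0.15 and 0.19 (median −0.0076).

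Among 17 genes of the MuvB, B-MYB, FOXM1, E2F4 and NF-Y factors that act at late cell cycle promoters, 6 rose and none fell (median 0.03). Over all genes, 14.1% were higher and 12.3% lower. *Mybl2*, B-MYB, was at 4.19 ± 0.600 CPM in control and 10.5 ± 3.29 CPM in *Nae1* cKO nerves (SD, n = 4; log2 fold change 1.32, SE 0.23, adjusted p = 0.0012). *Mybl1* (1.10, adjusted p = 0.00295) and the MuvB subunits *Lin54* (0.48, adjusted p = 0.00361) and *Lin9* (0.57, adjusted p = 0.0185) rose as well, but *Lin9* did not pass in 6 of the 21 alternative analyses, among them those without control K1 or without *Nae1* cKO L1 or L5, and *Lin54* in 3. The remaining pair, *Foxm1* (0.88, adjusted p = 0.0346) and *Rbl1* (0.62, adjusted p = 0.046), named here after their values were seen, did not pass in 10 and 11 of the 21 alternative analyses. The NF-Y subunits did not pass, with log2 fold changes of −0.17 (*Nfya*), 0.03 (*Nfyb*) and −0.04 (*Nfyc*).

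The motor subunits of kinesins of transport along axons and cytoplasmic microtubules share their motor domain with the mitotic kinesins. The list also holds kinesins not known mainly for transport, such as *Kif2a* and *Kif26b*. Of 21 transport kinesins and accessory subunits tested, 12 fell and 3 rose on TMM-scaled counts (median −0.27). None passed as lower on TPM, where few genes of any kind did: 2.48% of all genes on log2(TPM + 1) and 2.43% on log2(TPM + 0.1). On TMM-scaled counts, 12.3% of all genes were lower and 14.1% higher. The falls were led by *Kif1a* (−0.86, adjusted p = 4.01e-05), *Kif5c* (−0.84, adjusted p = 0.000369), the light chain *Klc1* (−0.51, adjusted p = 0.000432) and *Kif3c* (−0.48, adjusted p = 0.000709). The rises, named after their values were seen, were in *Kif26b* (1.47, adjusted p = 0.000971), *Kif21b* (0.97, adjusted p = 0.00337) and *Kif16b* (0.31, adjusted p = 0.00822). With library totals 7 fell, against 7.34% of all genes, as did 7 without control K1 and L4, against 6.36%.

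**Figure D4:**
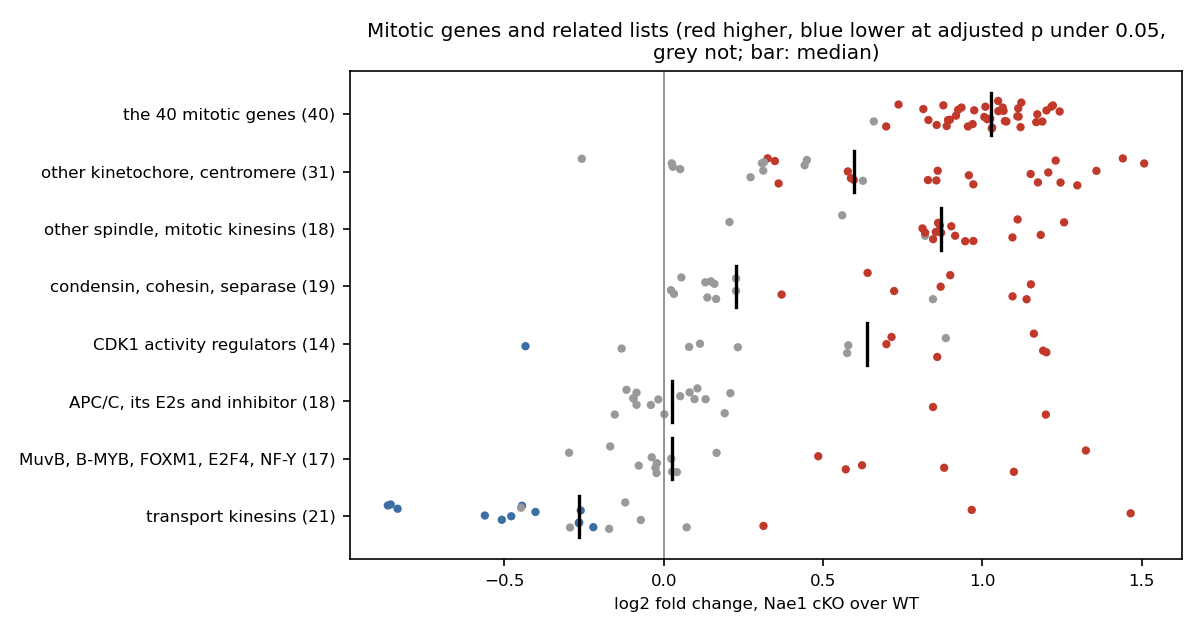
Log2 fold change (*Nae1* cKO over control) of each tested gene in the 40 mitotic genes and 7 related lists, with list sizes in brackets, red for higher and blue for lower at an adjusted p under 0.05, grey for neither, and a bar at each median. The medians are 1.03 for the 40 genes, 0.87 for other spindle genes, 0.03 for the anaphase-promoting complex and −0.27 for transport kinesins.

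Markers of the cell types in a nerve moved beside these genes. Their counts stand against 14.1% of all genes higher and 12.3% lower. Schwann cell lineage markers were present in every nerve, summing to 3030 to 3280 CPM in control and 2550 to 2900 CPM in *Nae1* cKO nerves, and 2 of 9 rose and 3 fell. Macrophage markers rose in 10 of 15, led by *Ctss* (1.85, adjusted p = 2.66e-07) and *Csf1r*, the receptor of macrophage growth factors (0.83, adjusted p = 1.93e-05). They summed to 254 to 280 CPM in control nerves and to 583, 456, 467 and 446 CPM in *Nae1* cKO nerves, so that K2, the lowest *Nae1* cKO nerve for mitotic genes, was the highest for macrophage markers. Fibroblast markers rose in 4 of 10, among them *Dcn* (0.70, adjusted p = 3.87e-05), *Lum* (1.06, adjusted p = 0.000175) and *Pdgfra* (0.91, adjusted p = 0.00239). They summed to 15800 to 19900 CPM in control and 19500 to 22000 CPM in *Nae1* cKO nerves. Endothelial markers fell in 4 of 10 and rose in none, with 305 to 375 CPM in control and 226 to 278 CPM in *Nae1* cKO nerves. Of other leukocyte markers only 2 of 14 were high enough to test, and neither passed. No marker of adipocytes (4 tested) or erythroid cells (5 tested) passed, 1 of 5 perineurial markers and 4 of 13 muscle markers fell, and 1 of 9 mural markers rose and 1 fell. Of 5 neuronal markers 2 rose and 3 did not pass. Their median log2 fold change was −0.56, with a range of −1.04 to 1.37. Which cells carried the mitotic RNA, and the part of the macrophage and fibroblast changes in it, was not tested.

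**Figure D5:**
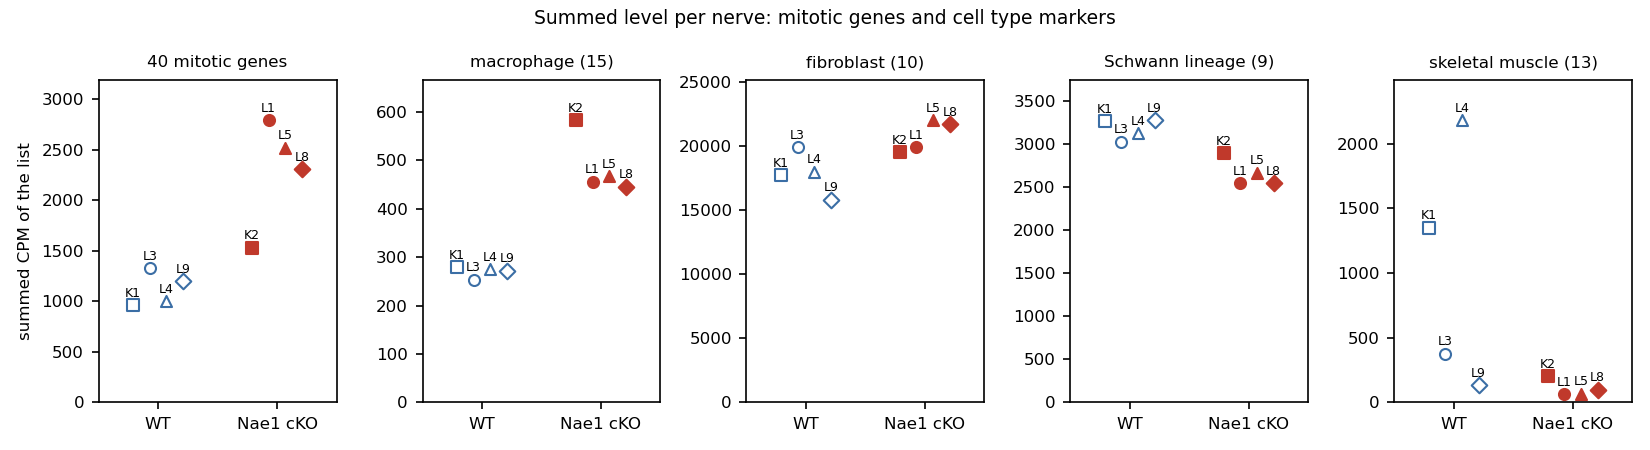
Summed CPM of the 40 mitotic genes and of 4 marker lists in each nerve, on linear axes from 0 that differ between panels, with open blue symbols for control and filled red symbols for *Nae1* cKO nerves. Macrophage markers reach 583 CPM in K2, where mitotic genes are at 1530 CPM, and 456 CPM in L1, where mitotic genes are at 2790 CPM.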

How the data were processed

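For 4 control and 4 *Nae1* cKO sciatic nerves the authors deposited gene tables of RSEM with expected counts (estimated, unscaled fragments per gene), TPM and FPKM (per length and depth, as the authors scaled them; FPKM was not used). STAR, RSEM, FastQC 0.11.5 and the build GRCm38 come from the submitters' processing notes, while the study's methods name TopHat, mm10 and Cuffdiff. How RSEM was set for strand, and with which annotation, is not given in the sources used here. Cuffdiff needs alignments and was not repeated.

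Expected counts were rounded and tested with edgeR 4.0.16 (filterByExpr, TMM, robust quasi-likelihood, Benjamini-Hochberg over 17090 genes; genotype only; common biological coefficient of variation 0.158) in R 4.3.3, after a test on simulated data. A gene was called below an adjusted p of 0.05. Of 53090 identifiers, 52489 matched GENCODE vM21, which gave coordinates. Libraries of a group are taken as separate mice; if they are not, p-values measure technical spread. Any pair within a group differed beyond sampling noise (chi-square per gene 4.07 to 57). Libraries held 12962798 to 14766770 expected counts, and the lowest count among the 40 mitotic genes was 19.

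Members and gene lists were chosen with earlier results of these data known. Every member is named, with up to 4 called genes of each other list by adjusted p; some genes that this rule gives are only counted or not reported here, and *Bub3*, *Mad1l1*, *Ska2* and *Cdca5* were named after their values were seen. The 21 alternatives were DESeq2 1.42.0, limma-voom (limma 3.58.1), DESeq2 size factors, library totals, no filter on low counts, a filter of 10 counts in each sample, log2(TPM + 1) and log2(TPM + 0.1) with limma, removal of mitochondrial and abundant noncoding genes, the letter as a term or as a limit, each nerve left out, control K1 and L4 left out, and, chosen after seeing the data, rows of 1 symbol summed.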

Additional observations from a re-analysis of the deposited data

Results flagged for a closer look

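In 4 of 82 groups of 4 nerves (41 genes, both genotypes) 1 nerve lay far from the other 3 by Dixon's criterion, which chance alone gives in about 1 group in 20. Nerve K2 was the low one in 3 of them. *Cdc20* was at 20.4 CPM in K2 and at 29.3, 30.0 and 30.4 CPM in L1, L5 and L8. *Cenpa*, the centromeric histone, was at 12.2 CPM in K2 and at 24.0, 23.1 and 23.9 CPM in the others. *Ska3* was at 3.88 CPM in K2 and at 7.04, 7.27 and 7.18 CPM in the others. Among the controls, *Ska1* was at 1.36 CPM in L4 and at 2.92, 3.19 and 3.02 CPM in K1, L3 and L9.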

How the results depend on the processing

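None of the 40 mitotic genes changed direction in any of the 21 alternatives. Of 840 values (40 genes, 21 alternatives) 792 stayed on the same side of the threshold, 43 no longer passed and 5 newly passed, the latter all *Plk1* (library totals, no filter, letter as a term, letter L alone, without K2). Without control K1 and L4, 20 of the 40 rose, against 7.17% of all genes. Elsewhere 33 to 40 did, against 7.28% to 22.7% of all genes. The 6 genes that lost a call there were *Aurka*, *Ska1*, *Nuf2*, *Cdca8*, *Kif4* and *Ect2*. The count over 2-fold was 12 on log2(TPM + 1), 7 without control K1 and L4, and 10 to 34 with 1 nerve left out. Its share over all genes was not counted in these alternatives. The low levels of *Ska1* (19 counts in 1 nerve) and *Plk1* limit their precision.

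Of all genes, 22.7% were higher and 7.34% lower with library totals, 7.59% and 2.48% on log2(TPM + 1), and 7.28% and 2.43% on log2(TPM + 0.1). Without K1 and L4 the shares were 7.17% and 6.36%. With 1 nerve left out they were 11.2% to 15.7% higher and 9.47% to 14.4% lower, and with DESeq2 13.5% were lower. Other mitotic genes numbered 30 higher on log2(TPM + 0.1), 25 without K1 and L4, and 0 lower on either TPM scale. Genes of the anaphase-promoting complex numbered 4 higher with library totals, 1 on either TPM scale, 1 without K1 and L4, and 2 to 4 with 1 nerve left out. For a list of 18 genes these counts lie near the shares of all genes. MuvB and related genes numbered 3 higher on log2(TPM + 1), 2 on log2(TPM + 0.1), 1 without K1 and L4, and 3 to 6 with 1 nerve left out. For a list of 17 genes, the count without K1 and L4 is near the share of all genes. Transport kinesins numbered 1 higher on log2(TPM + 0.1), and 7 lower with library totals, 7 without K1 and L4, and 0 on either TPM scale. Markers lower numbered 13, against 22 with DESeq2, 3 on log2(TPM + 1), 4 on log2(TPM + 0.1), 6 without K1 and L4, and 7 to 22 with 1 nerve left out. The log2 fold change of *Nae1* was −0.44 on log2(TPM + 1) and −0.46 on log2(TPM + 0.1), without passing. That of *Arpp19* turned from −0.43 to 0.035 on both. With 1 nerve left out, the log2 fold changes of *Bub3* and *Mad1l1*, both near 0, ran from −0.013 to 0.071 and from −0.0295 to 0.14, and neither passed. The causes were not tested.

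Of all genes called, 53.5% were higher, against 75.5% with library totals, 75.4% on log2(TPM + 1) and 75.0% on log2(TPM + 0.1), where the median of all genes moved to 0.16, 0.10 and 0.13 from 0.0066. The median of the 40 mitotic genes was then 1.19, 0.98 and 1.08. No paired analysis was possible because the nerve names of the genotypes have only the number 1 in common, under different letters (K1 and L1).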
